A study of Homo sapiens with 6 samples.

Results

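The genes described here encode the proteins of the cytosolic ribosome. They were chosen by name from a table of 60671 genes: RPL or RPS followed by a number and, where present, a suffix such as A, X, L or L1, together with RPLP0, RPLP1, RPLP2 and RPSA, with a TPM of at least 1 in any library. TPM, the unit of the table, is the share of a library's transcripts that a gene takes, corrected for transcript length and scaled to a fixed total. The rule took 78 genes, 49 of the large and 29 of the small ribosomal subunit, and left out RPL3L and RPL10L, whose highest TPM in any library were 0.14 and 0.28. RPS18, RPS28, RPS29, RPL36A and RPL41 are listed in the table without a gene name and so are not among the 78.

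U87 is an established human glioblastoma cell line. The study asked which genes rutaecarpine, an alkaloid that activates the aryl hydrocarbon receptor, regulates in these cells. Libraries were made from U87 cells given 100 μM rutaecarpine for 48 h (n = 3) and from U87 cells given the 0.1% DMSO solvent alone for 48 h (control, n = 3), and no line with an altered gene was sequenced. The labels do not say that the libraries of a group came from separate cultures, so p-values measure the spread between these libraries, which may be technical. Of the marker genes checked, the mesenchymal VIM (4430 to 7968 TPM), FN1 (2816 to 6721 TPM) and CD44 (415 to 837 TPM) were abundant. CDKN2A, a gene lost in U87, was at 0 in 5 libraries and at 0.06 TPM in the sixth, the immune markers PTPRC and CD3E did not exceed 0.03 and 0.07 TPM while CSF1R lay between 5.98 and 8.33 TPM, and of the glial markers GFAP lay between 3.48 and 5.41 TPM and SOX2 between 0 and 0.06 TPM. The neuronal SNAP25 lay between 14.7 and 27.5 TPM. The number of reads behind each value is unknown.

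The ribosome joins amino acids into proteins. Its small subunit reads the mRNA and its large subunit forms the peptide bonds. Each holds ribosomal RNA and proteins, most of which are needed in equal numbers. Most of the mRNAs for these proteins begin with a run of pyrimidines, the 5′ terminal oligopyrimidine tract, through which mTORC1 and the RNA-binding protein LARP1 control their translation. A few ribosomal proteins have a second gene copy, or paralog, that is usually expressed at a lower level or in particular tissues.

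The first bases of several of these genes are shown because the paralogs and the genes that differed most between the groups do not all begin alike. Each stretch holds 10 bases before and 20 bases after a transcript start that RefSeq annotates on GRCh38.p14, on the gene's own strand, and capitals mark a run of C and T, at least 5 bases long, counted from a C within 5 bases of the annotated start whatever stands before it. In RPL36AL the printed bases before the capitals are C and T as well.
RPS27 (chr1:153990752-153990781, plus strand): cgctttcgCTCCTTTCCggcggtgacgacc
RPS27L (chr15:63157458-63157487, minus strand): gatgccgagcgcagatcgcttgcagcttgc
RPL26 (chr17:8383174-8383203, minus strand): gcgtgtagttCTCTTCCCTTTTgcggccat
RPL26L1 (chr5:172958719-172958748, plus strand): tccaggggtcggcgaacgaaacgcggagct
RPL22 (chr1:6199576-6199605, minus strand): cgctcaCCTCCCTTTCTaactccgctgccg
RPL22L1 (chr3:170870176-170870205, minus strand): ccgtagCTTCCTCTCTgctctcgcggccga
RPL36AL (chr14:49620607-49620636, minus strand): tcttcCCTTTCCTgttaggcgagagctgcg
RPL7L1 (chr6:42879606-42879635, plus strand): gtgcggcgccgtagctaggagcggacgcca
RPL12 (chr9:127451387-127451416, minus strand): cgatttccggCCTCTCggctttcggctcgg
RPL31 (chr2:101002279-101002308, plus strand): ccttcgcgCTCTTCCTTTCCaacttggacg

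RefSeq starts were matched for 62 of the 78 genes. Such a run stood at the start of 51 of the 62 genes, and at 55 of their 78 annotated starts (70.5%) against 21.1% of 35116 starts of all genes. The 11 genes without it were RPL6, RPL7L1, RPL9, RPL15, RPL17, RPL26L1, RPL27, RPS4X, RPS15, RPS26 and RPS27L, so the paralogs RPS27L, RPL26L1 (at both of its starts) and RPL7L1 lacked a run that RPL22L1 and RPL36AL carried. In the 300 bases from 250 before to 50 after the start, on either strand, CCGGAAG, a core bound by ETS factors, was found at 34.6% of the starts of these genes and at 10.3% of all starts. AAGATGGC, a core bound by YY1, was found at 7.69% and 2.89%. CACGCNA, which holds the core that the aryl hydrocarbon receptor binds, was found at 5.13% and 5.51%, in RPL3, RPLP2, RPS10 and RPS21. These matches describe letters in the window and not bound sites.

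Ribosomal protein transcripts were among the most abundant in U87 cells. In TPM, their 78 genes took 10.5%, 10.7% and 13.2% of all transcripts in the 3 control libraries and 9.80%, 11.0% and 9.93% in the 3 rutaecarpine libraries. Control replicate 3 was above every other library, and among the other 5 the 2 groups overlapped. The mean share was 11.5% ± 1.497 (SD, n = 3) in control cells and 10.2% ± 0.653 (SD, n = 3) after rutaecarpine, a ratio of 0.894, and without control replicate 3 the ratio was 0.967. TPM is a share, so a change in the RNA content of each cell cannot be told apart from no change in these values, nor can fewer cells of a kind be told apart from less RNA per cell.

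**Figure D1:**
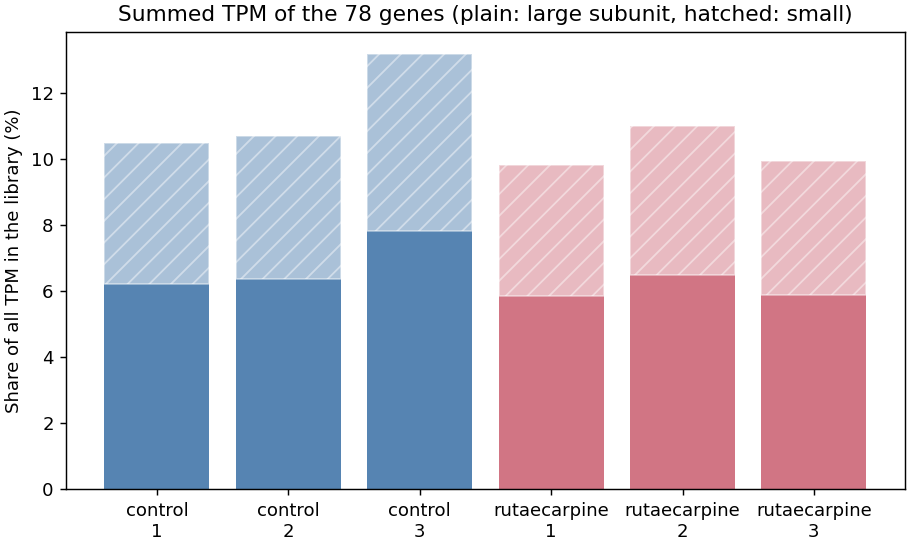
Summed TPM of the 78 ribosomal protein genes as a percentage of all TPM in each library, with large-subunit genes plain and small-subunit genes hatched. Control replicate 3 stands at 13.2% and the other 5 libraries lie between 9.80% and 11.0%.

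The summed TPM of the large subunit were 61739, 63023 and 77741 in control cells and 58076, 64398 and 58295 after rutaecarpine. Those of the small subunit were 42269.9, 43066 and 53469 in control cells and 39241, 44927 and 40255 after rutaecarpine. For both subunits control replicate 3 was the highest and rutaecarpine replicate 2 the next highest, and the groups overlapped. The log2 ratio of the group means was -0.16 for the large and -0.16 for the small subunit, and -0.05 and -0.04 without control replicate 3. The ratio of large-subunit to small-subunit TPM was 1.46 ± 0.00485 (SD, n = 3) in control cells and 1.45 ± 0.0238 (SD, n = 3) after rutaecarpine, so the subunits kept nearly the same ratio in all 6 libraries, from 1.43 to 1.48.

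The single genes followed the sums. Control replicate 3 was the highest of the 6 libraries for 74 of the 78 genes, 45 of 49 in the large and 29 of 29 in the small subunit, against 15.3% of the 14377 genes tested. The exceptions were RPL4, RPL7L1, RPL26L1 and RPL36AL. Relative to the mean of control replicates 1 and 2, it was higher for 77 of 78 genes, with a median ratio of 1.24, from 0.520 for RPL7L1 and 1.02 for RPL4 to 1.62 for RPL32. Over 194 other genes with a mean of at least 500 TPM the median ratio was 1.07, and over all tested genes it was 0.816. Within the rutaecarpine group replicate 2 was the highest for 71 of the 78 genes. Over all tested genes in 5 bins of transcript length, the median log2 difference of control replicate 3 from the mean of the other controls was -0.23, -0.15, -0.11, -0.22 and -0.49 from the shortest to the longest transcripts. The part of RNA quality or library preparation in these deviations was not tested, and results are given with and without control replicate 3.

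**Figure D2:**
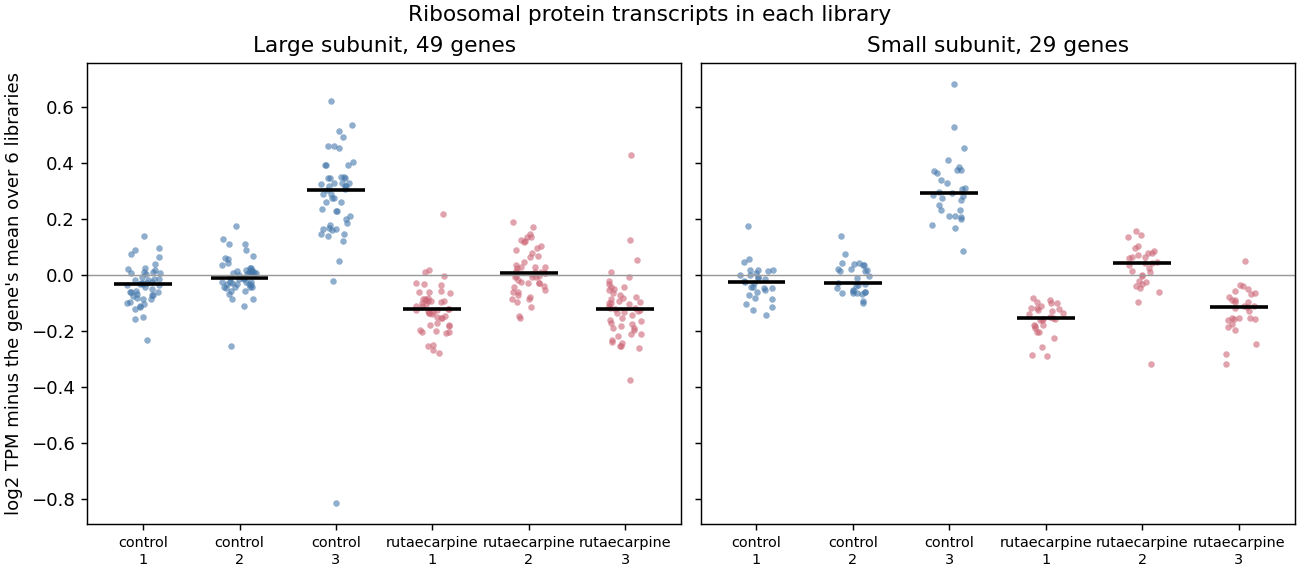
Each point is a ribosomal protein gene and its log2 TPM in a library minus its mean log2 TPM over the 6 libraries, with the large subunit on the left, the small on the right and the median as a bar. In control replicate 3 nearly all points of both subunits lie above those of the other libraries, with RPL7L1 far below the rest.

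The main comparison asked whether rutaecarpine changed the level of any ribosomal protein transcript. With limma on log2(TPM + 1) and Benjamini-Hochberg adjustment over 14377 genes, RPL12 of the large subunit and RPS27L of the small subunit were lower after rutaecarpine and none of the 78 was higher. That is 1 of 49 large-subunit and 1 of 29 small-subunit genes lower, where 4.68% of all tested genes were called lower and 4.6% higher. At an unadjusted p under 0.05, 9 genes were lower (5 large, 4 small, 11% of all tested genes) and none was higher (13.4%). Leaving out control replicate 3 gave 7 lower and 1 higher, against 2419 and 2132 of 14188 tested genes. None of the 78 passed the study's threshold for a differentially expressed gene. That threshold is an adjusted p of at most 0.05 with a log2 fold change beyond 1, and 3.51% of all tested genes passed it. For 67 of the 78 genes the 95% interval of the difference lay within a 1.5-fold change in either direction. It did for all 78 without control replicate 3. Among all tested genes it did for 4913 of 14377, and for 7380 of 14188 without control replicate 3. The median SE with all 6 libraries was 0.113 for the 78 genes and 0.183 for all tested genes.

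The fitted log2 fold changes were below 0 for 46 of 49 large-subunit and 29 of 29 small-subunit genes, against 40.7% of all tested genes, and without control replicate 3 for 37 and 23, against 50.9%. Their median was -0.15 for the large and -0.15 for the small subunit, against 0.08 for all tested genes, and -0.05, -0.07 and -0.01 without control replicate 3. In 20 of the 78 genes (11 large, 9 small) every rutaecarpine library was below every control library, against 14% of all tested genes. No gene was higher in all rutaecarpine libraries, against 19.3% of all tested genes. These counts were 20 lower and 1 higher without control replicate 3, against 3734 and 3392 of 14188 tested genes. For a gene that is highest in control replicate 3, leaving that library out cannot change whether the treated libraries lie below all controls. The unchanged count of lower genes was thus nearly fixed in advance. Control replicate 3 was the highest library for 74 of the genes, and the subunit medians were smaller in size without it. What set that library apart was not tested.

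**Figure D3:**
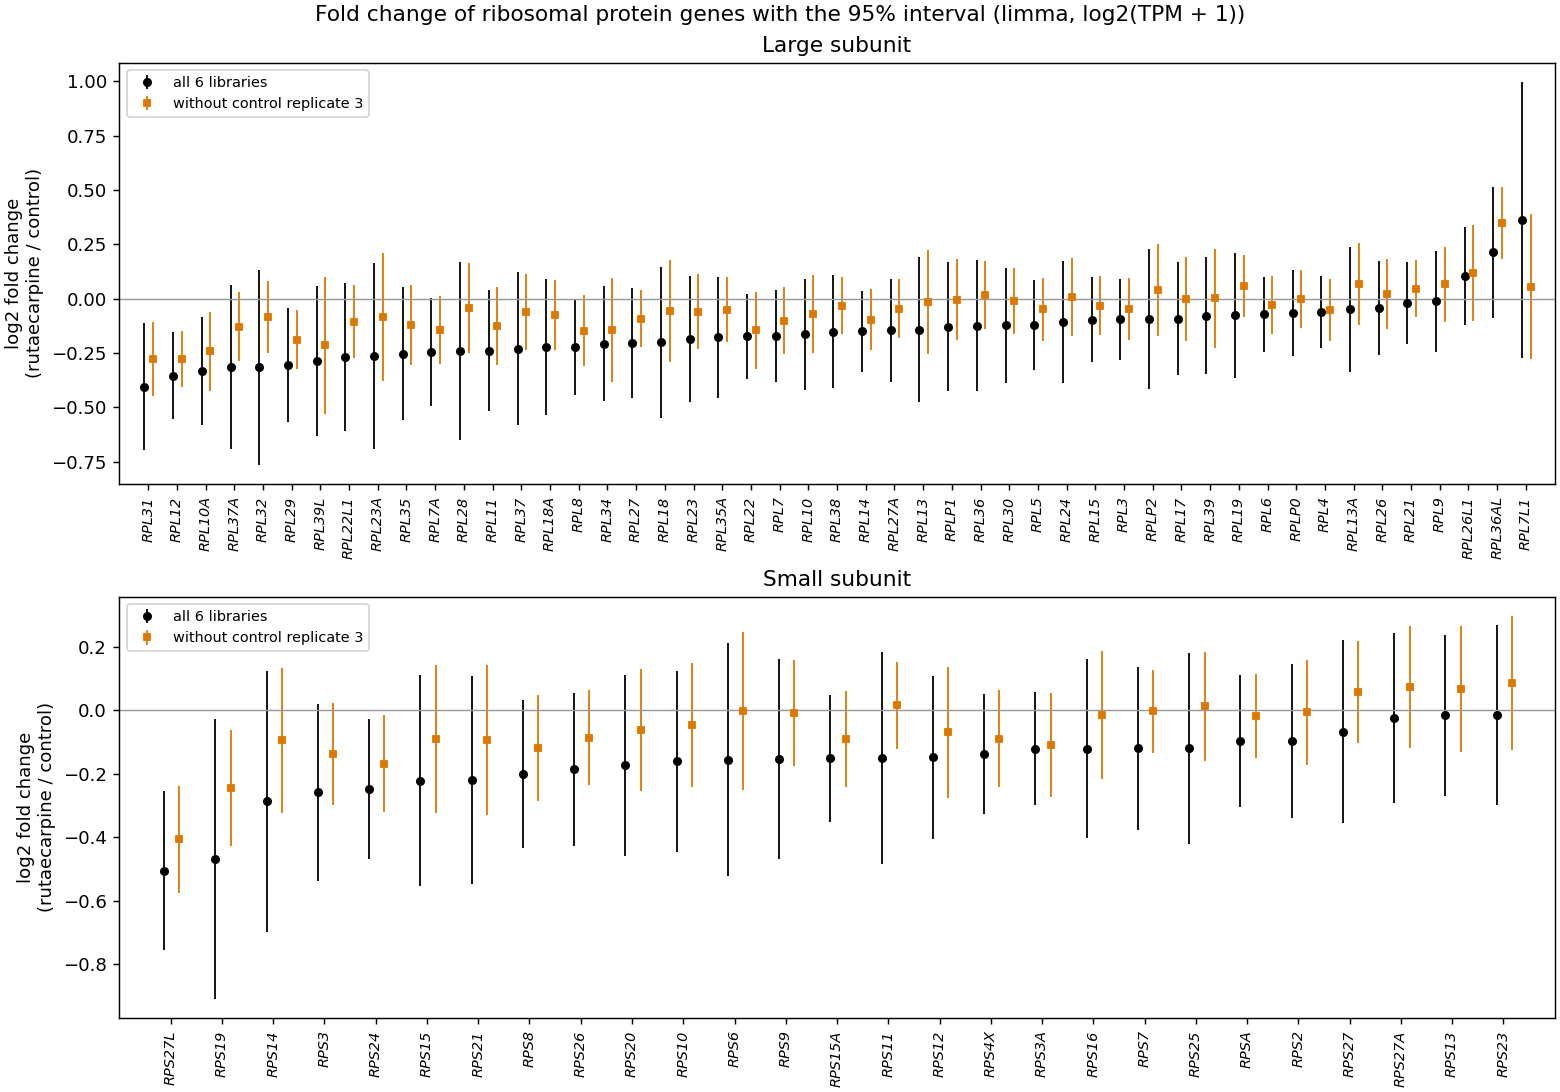
Log2 fold change (rutaecarpine over control, on the log2(TPM + 1) scale) of the ribosomal protein genes shown, with the 95% interval of each from limma, for all 6 libraries (circles) and without control replicate 3 (squares). RPL12 and RPS27L pass the adjusted threshold with all 6 libraries, and most other values move towards 0 when control replicate 3 is left out.

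RPS27L, a paralog of the small-subunit protein RPS27 and a target of p53, had the lowest fold change. Its gene (ENSG00000185088) lies on chromosome 15 from 63125872 to 63158021 on the minus strand (GENCODE release 29, GRCh38). It was at 204, 199 and 247 TPM in control cells and at 148, 145 and 162 TPM after rutaecarpine. The groups did not overlap, and control replicate 3 was the highest. The mean fell from 217 ± 26.7 to 152 ± 9.30 TPM (SD, n = 3), with a log2 fold change of -0.51 (SE 0.11, adjusted p = 0.0293 by limma with Benjamini-Hochberg adjustment). Without control replicate 3 it was -0.41 (adjusted p = 0.00795), and over 18 alternative analyses the limma adjusted p ran from 0.00202 to 0.123 and was past the threshold in 7. RPS27 itself, the most abundant of the 78 transcripts and a zinc-finger protein of the small subunit, was at 4763, 5000.5 and 6331 TPM in control cells and at 4844, 5347 and 5049 TPM after rutaecarpine. These groups overlapped, with a log2 fold change of -0.07 (95% interval -0.36 to 0.22, adjusted p = 0.762 by limma). RPS27L therefore took 4.11%, 3.83% and 3.76% of the TPM of the pair in control cells and 2.96%, 2.64% and 3.12% after rutaecarpine, without overlap.

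RPL12, a protein at the base of the large subunit's stalk, where elongation factors bind, was the other gene that passed. Its gene (ENSG00000197958) lies on chromosome 9 from 127447674 to 127451405 on the minus strand. It was at 1082, 1091 and 1271 TPM in control cells and at 892, 913 and 882 TPM after rutaecarpine. Every treated library was below every control library. The mean fell from 1148 ± 107 to 896 ± 15.8 TPM (SD, n = 3), with a log2 fold change of -0.35 (SE 0.09, adjusted p = 0.0467 by limma). Without control replicate 3 it was -0.28 (adjusted p = 0.0123), and over the 18 alternatives the limma adjusted p ran from 0.00228 to 0.232 and was past the threshold in 6. The other stalk proteins did not pass. RPLP0, to which the stalk is anchored and the most abundant of the large-subunit transcripts, was at 3531, 3524 and 4037 TPM in control cells and at 3459.7, 3585 and 3521 TPM after rutaecarpine, with a log2 fold change of -0.07 (95% interval -0.26 to 0.13). The log2 fold changes of the acidic stalk proteins RPLP1 and RPLP2 were -0.13 (95% interval -0.43 to 0.17) and -0.09 (95% interval -0.42 to 0.23).

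RPL31 and RPL36AL did not pass with all 6 libraries weighted alike and passed when control replicate 3 was left out, when 3 of the 78 genes were lower (10.3% of all tested genes) and 1 higher (8.36%). RPL31, a large-subunit protein near the exit of the peptide tunnel that is named here after its values were seen, was at 1256, 1348 and 1699 TPM in control cells and at 1036, 1155 and 1036 TPM after rutaecarpine, without overlap. Its log2 fold change was -0.41 (SE 0.12, adjusted p = 0.0968 by limma) with all libraries and -0.28 (SE 0.07, adjusted p = 0.0368) without control replicate 3. RPL36AL, a paralog of RPL36A, was at 195, 192 and 257 TPM in control cells and at 231, 262 and 249.7 TPM after rutaecarpine. Control replicate 3 lay among the treated libraries, and the other 2 controls lay below all of them. Its log2 fold change was 0.21 (SE 0.13, adjusted p = 0.358 by limma) with all libraries and 0.35 (SE 0.07, adjusted p = 0.0144) without control replicate 3. Over the 18 alternatives the limma adjusted p ran from 0.00605 to 0.297 for RPL31 and from 0.0101 to 0.876 for RPL36AL, and each was past the threshold in 3.

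**Figure D4:**
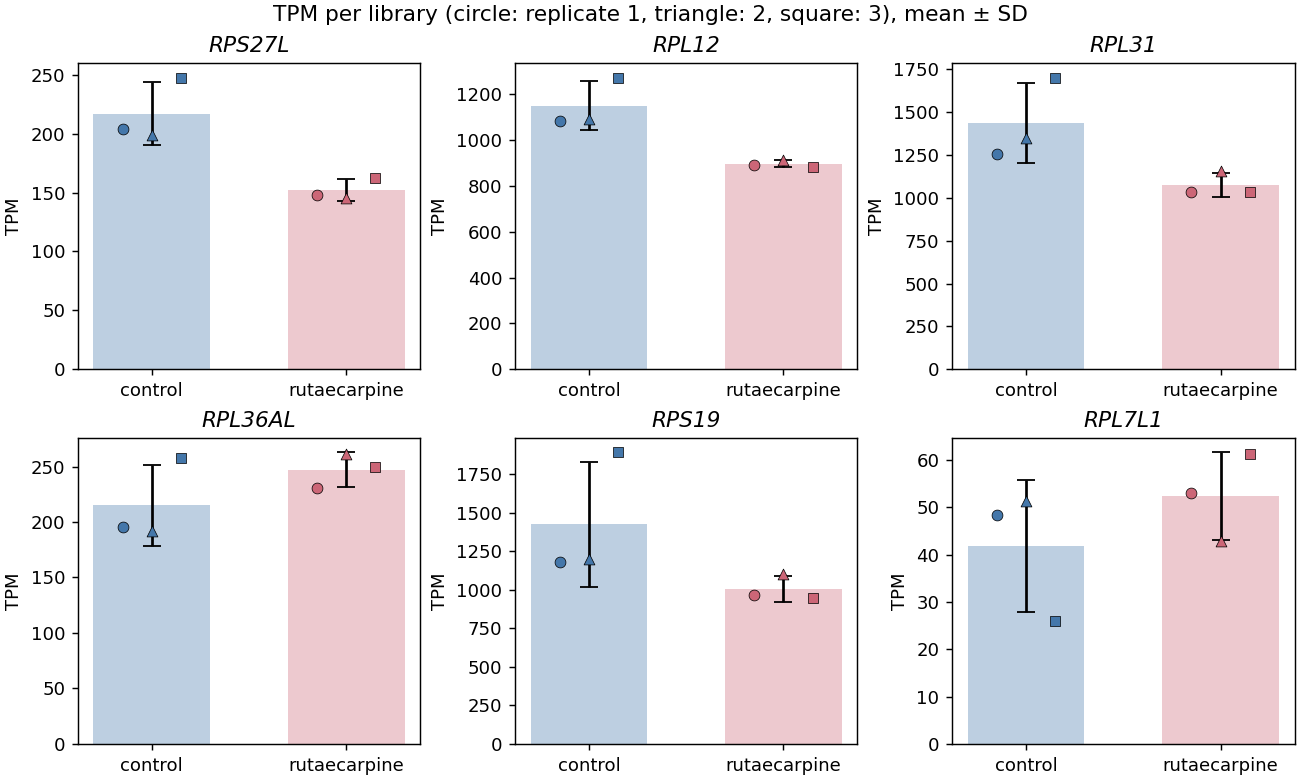
TPM of 6 ribosomal protein genes in each library (circle, replicate 1; triangle, replicate 2; square, replicate 3), with bars for the group means and error bars for ± 1 SD (n = 3 libraries per group). RPS27L, RPL12, RPL31 and RPS19 have no treated library above a control library, and control replicate 3 is the highest control for 5 of the 6 genes and the lowest for RPL7L1.

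RPS19, a small-subunit protein mutated in Diamond-Blackfan anemia and also named after its values were seen, was far higher in control replicate 3 than in the other controls. It was at 1182, 1200 and 1894 TPM in control cells and at 969.5, 1105 and 946.7 TPM after rutaecarpine, without overlap. The log2 fold change was -0.47 (SE 0.19, adjusted p = 0.183 by limma) with all libraries and -0.24 (adjusted p = 0.0692) without control replicate 3, where the spread was smaller, and over 18 alternatives the limma adjusted p ran from 0.0211 to 0.429.

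The paralogs other than RPS27L did not pass with all 6 libraries. RPL36AL made up 36.3%, 32.8% and 39.9% of the TPM of the RPL36AL and RPL36A pair in control cells and 41.4%, 41.8% and 42.6% after rutaecarpine, without overlap, while RPL36A itself was at 342, 394 and 387 TPM and at 327, 364 and 336 TPM. RPL26L1, a paralog of RPL26, was at 82.6, 93.7 and 90.7 TPM in control cells and at 88.2, 104 and 95.4 TPM after rutaecarpine, with a log2 fold change of 0.10 (95% interval -0.12 to 0.33). Its share of the pair with RPL26 was 3.45%, 3.746% and 3.23% in control cells and 3.752%, 3.92% and 3.83% after rutaecarpine, so that the nearest values of the groups almost met. With 3 libraries in each group an exact permutation test cannot give a p below 0.1, and the shares were not tested.

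RPL22L1 was nearly as abundant as RPL22, a large-subunit protein that also binds other RNAs, with 45.7% to 55.0% of the TPM of the pair and overlapping groups. RPL22L1 was at 180.5, 189 and 259 TPM in control cells and at 163, 183 and 169 TPM after rutaecarpine (log2 fold change -0.27, 95% interval -0.61 to 0.07). RPL39L, a paralog of RPL39 known from the testis, was the least abundant of the 78 genes, at 18.1, 16.6 and 20.3 TPM in control cells and at 16.1, 15.8 and 12.7 TPM after rutaecarpine (log2 fold change -0.29, 95% interval -0.63 to 0.06). It made up 0.703% to 0.999% of the TPM of its pair. RPL7L1, a homolog of RPL7 that acts in ribosome assembly, was at 48.4, 51.4 and 25.9 TPM in control cells and at 53.0, 42.9 and 61.3 TPM after rutaecarpine. Control replicate 3 was far below the other 5 libraries, the reverse of the other genes, and the log2 fold change was 0.36 (95% interval -0.27 to 1.00) with all libraries and 0.06 (95% interval -0.28 to 0.39) without it. RPL3L, the muscle paralog of RPL3, and RPL10L, the testis paralog of RPL10, took at most 0.00835% and 0.00969% of their pairs.

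**Figure D5:**
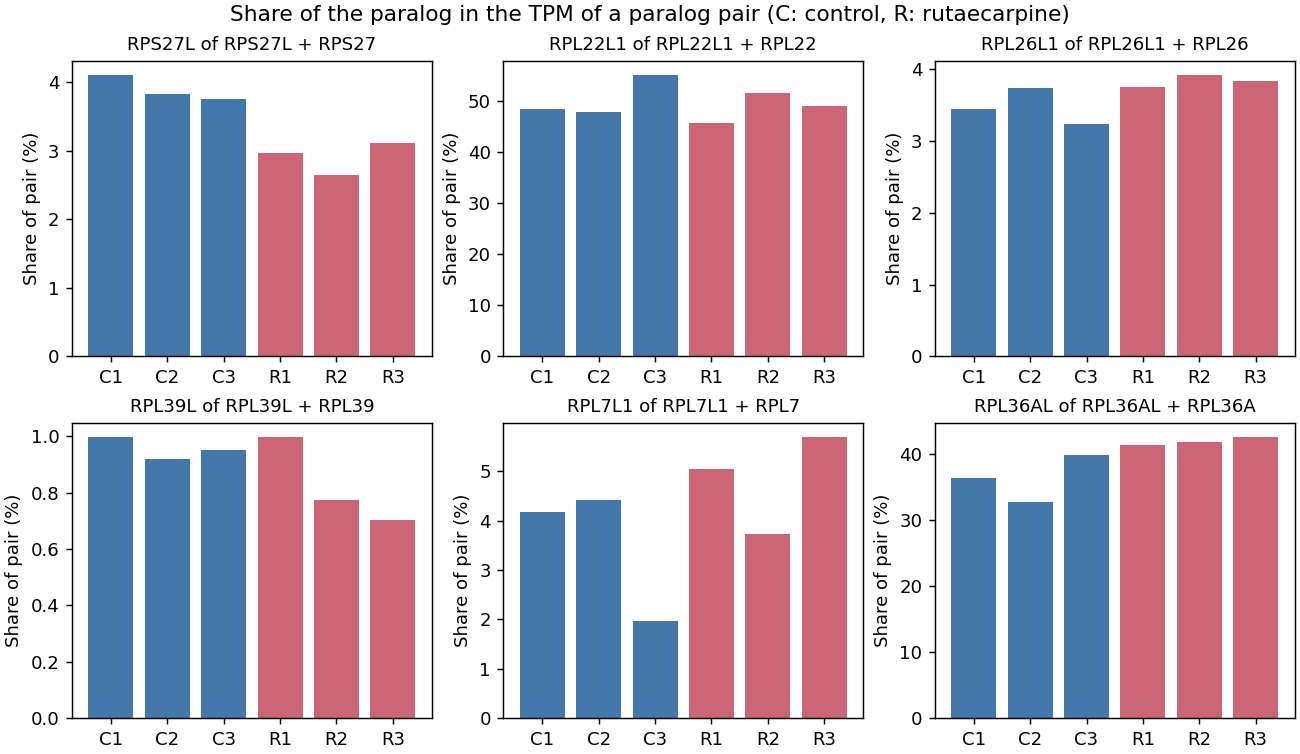
Share of each paralog in the summed TPM of the paralog and its parent gene, in percent, for control (C1 to C3) and rutaecarpine (R1 to R3) libraries. The RPS27L share is lower in all rutaecarpine libraries, those of RPL26L1 and RPL36AL are higher, and the groups overlap for RPL22L1, RPL39L and RPL7L1.

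Single ribosomal protein genes were spread over a wide range of TPM. The highest mean over the 6 libraries was 5222 TPM (RPS27), the median 1249 TPM and the lowest 16.6 TPM (RPL39L). Most fell in a narrow band, with 40 of the 78 genes between 1000 and 2000 TPM, 14 at 2000 TPM or above, 15 between 500 and 1000 TPM, 6 between 100 and 500 TPM and 3 below 100 TPM. After RPS27 the most abundant of the small subunit were RPS23 (2966 TPM), RPS20 (2877 TPM) and RPS12 (2554 TPM), and of the large subunit RPLP0 (3609.6 TPM), RPL13 (2949 TPM), RPL10 (2886 TPM), RPL26 (2438 TPM) and RPL19 (2217 TPM). RPS23 and RPL13, neighbours in this order, did not differ beyond their spread, with control means of 2985 ± 384 TPM and 3100 ± 496 TPM (SD, n = 3), while RPS27 lay above the other 77 genes in each library. RPS26 (406 TPM) and RPL5 (446 TPM) were among the least abundant of the genes that are no paralogs. Transcripts of ribosomal protein genes have many near-identical processed pseudogenes, and how reads were divided between them and the parent gene can change such levels. The 1491 pseudogenes of these genes in the table summed to 2.98% to 3.61% of the TPM of the 78 genes, with a larger part for single genes. RPL23AP42, named after its values were seen, was at 1838 to 2454 TPM where its parent RPL23A was at 565 to 964 TPM. Adding the pseudogenes to their parents left RPL12 and RPS27L as the genes called.

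RPL5 and RPL11, which bind MDM2 when ribosome assembly is disturbed, did not pass and had log2 fold changes of -0.12 (95% interval -0.33 to 0.08) and -0.24 (95% interval -0.52 to 0.04). RPL11 was at 1514, 1518 and 1922 TPM in control cells and at 1315, 1522 and 1339 TPM after rutaecarpine, with overlap between the groups. RPS6, the substrate of S6 kinase, did not pass either. It was at 608, 586 and 819.6 TPM in control cells and at 578, 689 and 529 TPM after rutaecarpine. The log2 fold change was -0.16 (95% interval -0.52 to 0.21) with all libraries and -0.003 without control replicate 3. RPS3, which is also a DNA repair nuclease, was lower without overlap, at 673, 697 and 883 TPM against 599.97, 668 and 603 TPM, and did not pass (log2 fold change -0.26, adjusted p = 0.235 by limma). The laminin receptor RPSA (-0.10), the interferon pathway protein RPL13A (-0.05), the ubiquitin fusion RPS27A (-0.02) and the X-linked RPS4X (-0.14) had log2 fold changes near 0, each with a 95% interval that included 0.

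Ribosomal proteins outside the naming rule also had log2 fold changes below 0 and none passed. The ubiquitin-like fusion FAU and the scaffold RACK1 had log2 fold changes of -0.05 and -0.13, and each was highest in control replicate 3. RPL41, one of the genes without a name in the table, was at 5829, 6031 and 8068 TPM in control cells and at 5739.7, 6424 and 5708 TPM after rutaecarpine, with a log2 fold change of -0.14 with all libraries and 0.005 without control replicate 3. Those of RPS18 and RPS29 were -0.22 and -0.34 with all libraries and -0.15 and -0.18 without control replicate 3, without overlap of the groups. Those of RPL36A and RPS28 were -0.13 and -0.02 with all libraries and -0.10 and 0.14 without it, with overlap. RPS18, RPS28 and RPS29 were added after their values were seen. Other transcripts that begin with a pyrimidine tract, such as TPT1 and EEF1A1, gave 0 of 20 called by limma in either direction, with 6 of the 20 highest in control replicate 3. The median log2 fold change of the 20 was 0.07.

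Genes that make or control ribosomes were counted with all 6 libraries, where 4.6% of all tested genes were called higher and 4.68% lower, and without control replicate 3, where 8.36% and 10.3% were. Of 37 translation initiation factors 3 rose and 0 fell: EIF1B (log2 fold change 0.65) and EIF2S2 (0.60), which take part in start codon selection and initiator tRNA delivery, and EIF3M (0.34), a subunit of the scaffold eIF3. Without control replicate 3, 9 were called higher and 0 lower. Of 82 genes of ribosome assembly and rRNA processing RRS1, needed for the large subunit, was the 1 called lower (-0.51) with all libraries and 0 were higher, and without control replicate 3, 6 were higher and 2 lower. Of 13 elongation and termination factors and 15 RNA polymerase I genes 0 were called by limma with all libraries. Without control replicate 3, the release factor ETF1 was higher (0.35), the elongation factor kinase EEF2K lower (-0.87), and the polymerase I genes POLR1E (-0.54) and UBTF (-0.32) lower, all 4 named after their values were seen. Of 8 genes of rRNA modification particles NOP56, a core protein of box C/D particles, was called lower in both analyses (-0.37 with all libraries). Of 16 genes around mTORC1, which controls the translation of pyrimidine-tract mRNAs, 4 rose and 0 fell with all libraries, and 5 were higher without control replicate 3. The 4 were the stress-induced mTORC1 inhibitor SESN2 (1.69), the mTORC1 subunit RPTOR (1.02), the mTOR inhibitor DEPTOR (0.85) and, named after its values were seen, the mTORC1 inhibitor DDIT4 (0.85). DEPTOR lay near the floor, at 0.95, 0.74 and 0.58 TPM in control cells and at 2.47, 1.61 and 2.45 TPM after rutaecarpine. It passed the filter on low TPM only through the treated libraries, so its call was partly set by that filter. LARP1 was at 62.9, 68.9 and 43.2 TPM in control cells and at 71.6, 55.4 and 73.6 TPM after rutaecarpine, with overlapping groups.

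With libraries weighted by how closely they follow the fit, which gave control replicate 3 the lowest weight, 10 of the 78 genes were called lower (14.1% of all tested genes) and RPL36AL higher (13.5%). Among those lower were RPL12, RPL31, RPS19, RPS27L and, named after their values were seen, RPL10A, RPL29 and RPS24, whose log2 fold changes in the unweighted fit were -0.33, -0.31 and -0.25. When each library was centred on the median of the 78 genes, which removes any shift they share, 0 genes were called by limma with all 6 libraries (4.14% of all tested genes) and RPL12, RPL31, RPL36AL and RPS27L without control replicate 3 (12.6% of all tested genes), a scaling chosen after the data were seen. With all 6 libraries this centring moved the median over all 14377 genes from 0.08 to 0.22 on the log2 scale, and 46 of the 78 genes, in place of 75, were below 0. The log2 fold changes on that scale without control replicate 3 were -0.36 for RPS27L (adjusted p = 0.0429 by limma), -0.24 for RPL12 (adjusted p = 0.0292) and 0.39 for RPL36AL (adjusted p = 0.0101). Genes that begin with a pyrimidine run and genes that do not had median log2 fold changes of -0.15 (51 genes) and -0.10 (11 genes) with all libraries and -0.05 and -0.03 without control replicate 3.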

How the data were processed

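RNA of U87 cells (total RNA per the labels, total mRNA in the study's methods) was sequenced for the authors on an Illumina NovaSeq. The values the authors deposited are TPM, made with RSEM, 1 column per library, and the submitters' processing notes also name DESeq2, edgeR and the build GRCh38.p13. The aligner, annotation release and strandedness are not given in the sources used here. TPM keeps no read numbers, so depth is unknown, no counting interval can be given and count tests were not used. RSEM divides reads between near-identical copies, which leaves genes with pseudogenes or paralogs uncertain.

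Samples were grouped by their titles. Genes that reached 1 TPM in 3 or more libraries (14377, all 78 members among them) were compared by limma 3.58.1 (R 4.3.3) with a mean-variance trend, two-sided, on log2(TPM + 1), which understates changes of low genes. Benjamini-Hochberg adjustment ran over all tested genes, and an adjusted p of at most 0.05 was called. No set was tested. The members and lists were chosen with earlier results of these data known. Members named with values were those called (up to 10 per subunit and direction), the 5 highest and 5 lowest per subunit, the paralogs with their parents and genes with known extra functions, and others are marked in the text. Of the other lists, DEGs or at most the 3 strongest calls per direction were named. Names of unnamed rows were looked up by Ensembl identifier, and positions came from GENCODE 29. A few genes are not reported by name here. Replicate numbers did not pair libraries (correlations of same-numbered deviations 0.12, -0.27 and -0.22).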

Additional observations from a re-analysis of the deposited data

How the results depend on the processing

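The direction of the subunit medians and of the summed TPM did not change under the alternatives for which they were computed. Fits centred on the median of the ribosomal protein genes, which take out a shared shift, are not among these. The values moved by less than 1 SD between control libraries, an SD that includes control replicate 3. Leaving that library out moved the medians from -0.15 to -0.05 (large subunit) and from -0.15 to -0.07 (small subunit). The median log2 fold change lay between -0.24 and -0.05 for the large and between -0.25 and -0.07 for the small subunit over 16 alternatives, and the log2 ratio of summed TPM between -0.28 and -0.05 and between -0.28 and -0.04 over 9. The counts of called genes depended on the setting, from 1 large-subunit and 1 small-subunit gene called lower to 0 and 0 without a filter on low TPM, with libraries centred on the median of tested genes, with a correction for transcript length and GC and in limma without the trend. Among all tested genes those settings called, in that order, 892 of 29330, 1379 of 14377, 2098 of 14267 and 1212 of 14377. The main analysis called 1335 of 14377. With TPM rescaled to the total of other genes the large-subunit count was 0, and 1383 of 14377 genes were called. With library weights, which gave control replicate 3 a weight of 0.121 where the others ran from 0.611 to 2.49, 6 large-subunit and 4 small-subunit genes were lower and 1 large-subunit gene was higher. Leaving out a library gave 0 to 2 large-subunit and 0 to 1 small-subunit genes called lower. It gave 0 to 1 large-subunit genes higher, and each upper value came without control replicate 3. That fit called 2652 of 14188 tested genes, where leaving out any other library called 500 to 714. With libraries centred on the median of the ribosomal protein genes, chosen after seeing the data, 0 and 0 were lower, and without control replicate 3 as well 2 large-subunit genes were lower and 1 was higher. A pseudocount of 0.1, a TPM of at least 1 in all 6 libraries and adding the pseudogenes left both counts at 1. Among all tested genes they called 1279 of 14377, 1247 of 12713 and 1335 of 14377.

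A fit with the replicate number as a block, for libraries whose numbers did not pair them, called 0 large-subunit and 0 small-subunit genes and 428 of all tested genes, against 1335 without it. The cause of these changes was not tested. Among 12 named genes, 10 results passed under an alternative only and 23 no longer passed, and none changed sign. With 3 libraries per group and unknown depth, smaller differences than the intervals given cannot be resolved.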

Other observations

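The mitochondrial ribosome, which is built from other proteins, showed 1 of 78 measured protein genes called higher by limma and 0 lower, where 4.6% of all tested genes were called higher and 4.68% lower. The gene was MRPS6, a small-subunit protein, at 170, 152 and 182 TPM in control cells and at 265, 275 and 246 TPM after rutaecarpine (log2 fold change 0.64, SE 0.09, adjusted p = 0.00739 by limma with Benjamini-Hochberg adjustment). The treated libraries were all above the controls. The median log2 fold change of the 78 genes was -0.002, and control replicate 3 was the highest of the 6 libraries for 38 of them, with a median ratio of 1.18 to the mean of the other controls. Without control replicate 3, 6 were higher and 0 lower.

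Of 38 pseudogenes of ribosomal protein genes that were tested, 1 rose and 1 fell. Of all tested genes 4.6% were called higher and 4.68% lower. With control replicate 3 left out, 1 pseudogene was higher and 2 were lower, against 8.36% and 10.3% of all tested genes. RPLP0P2 was at 6.59, 8.24 and 6.24 TPM in control cells and at 15.9, 23.8 and 18.6 TPM after rutaecarpine (log2 fold change 1.34, SE 0.19, adjusted p = 0.00618 by limma), while its parent RPLP0 had a log2 fold change of -0.07. RPSAP52, whose transcript lies opposite the gene HMGA2, was at 46.8, 41.9 and 39.6 TPM in control cells and at 28.5, 24.2 and 28.0 TPM after rutaecarpine (log2 fold change -0.65, SE 0.12, adjusted p = 0.0159 by limma). The use of strand in the authors' counting is not given in the sources used here, and without it reads of RPSAP52 and HMGA2 cannot be told apart.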
